A study of Mus musculus with 18 samples.

Results

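TKO EBs were compared with Dnmt1-/- EBs after 4 days of differentiation, in 4 of the 18 arrays of the series: 2 arrays of TKO EBs and 2 of Dnmt1-/- EBs, taken by their labels with all 35512 probe sets. Both lines were mouse ESCs of strain J1 (129Sv/Jae) and both lacked Dnmt1. TKO cells also lacked Dnmt3a and Dnmt3b, so the comparison asks what the loss of these 2 enzymes added at day 4 to the loss of Dnmt1. EBs were made in hanging drops in ES cell medium without LIF, no further agent was given, and RNA was taken with Trizol from whole EBs and measured on Affymetrix Mouse Gene 1.0 ST arrays as log2 signals. The labels call the 2 arrays of a group biological replicates, and the sources used here do not say whether a mutant line was a single clone. Each genotype is a line of its own, so other differences between the lines cannot be told apart from the loss of Dnmt3a and Dnmt3b. EBs of wt J1 cells at day 4, the same 3 lines as undifferentiated ESCs (day 0) and as EBs at day 16, also with 2 arrays a group, are used below for context.

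Dnmt1 copies CpG methylation onto the new DNA strand after replication, while Dnmt3a and Dnmt3b set methylation de novo. ESCs without Dnmt1 keep some methylation that Dnmt3a and Dnmt3b lay down, whereas TKO cells have none of these 3 enzymes. When LIF is withdrawn and ESCs aggregate, the pluripotency network is switched off, cells pass through a state like the early postimplantation epiblast, and part of them then go through a primitive streak-like stage into mesoderm and endoderm.

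The targeted genes were examined in every array before any other gene. The signal of Dnmt1 at day 4 was 8.40 and 8.75 in TKO and 8.45 and 8.65 in Dnmt1-/- EBs, beside 9.42 and 9.64 in wt EBs. Both mutant lines lay below wt and overlapped each other, as the labels imply. Dnmt3a gave 7.15 and 7.13 in TKO against 8.27 and 8.17 in Dnmt1-/- and 7.96 and 8.31 in wt EBs, and was called lower in TKO than in Dnmt1-/- EBs (log2 fold change -1.08 ± 0.22 SE, limma adjusted p = 0.037), a call lost without any of the 4 arrays. Dnmt3b gave 8.88 and 8.58 in TKO against 9.85 and 9.14 in Dnmt1-/- EBs, which did not overlap, but the difference of -0.76 ± 0.24 was not called (limma adjusted p = 0.19). Where the probes of these sets lie relative to the deleted exons was not analysed here, so a signal that remains is no measure of intact transcript.

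The 2 Dnmt1-/- arrays of day 4 lay apart in several gene groups, and this bears on most counts below. In Dnmt1-/- EBs 1166 probe sets (3.28%) differed by at least 2-fold between replicates, beside 536 (1.51%) in TKO EBs, while the correlation between replicates was 0.985 and 0.991. Replicate 1 of Dnmt1-/- lay above replicate 2 by a median of 0.60 on the log2 scale over 37 pluripotency genes, 0.57 over 20 epiblast genes, 1.11 over 27 primitive streak genes, 0.63 over 25 genes of FGF signalling, 0.63 over 13 genes of the 2-cell-like state and 0.68 over 27 genes of hypoxia and glycolysis. The median of replicate 1 minus replicate 2 was -0.47 over 26 blood and endothelial genes, -0.16 over 26 genes of cardiac and lateral mesoderm, and between -0.19 and 0.26 over the 16 lists not named here. The part of this spread in the results was not tested, and the calls of most lists are given with and without each array. RNA of whole EBs was measured, so fewer cells of a type and less RNA per cell cannot be told apart.

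At day 4, 301 of 35512 probe sets were called between the lines (0.848%), 195 higher in TKO (0.549%) and 106 lower (0.298%). A call needed at least a 2-fold difference and a false discovery rate under 0.05 in limma, with the spread taken from all 18 arrays. The probe sets called higher had a median log2 fold change of 1.23 in size and those called lower of 1.54, and in all 301 both arrays of a line lay above both arrays of the other, as they did in 42.2% of all probe sets. Counted by gene, from the probe set with the highest mean signal, 163 of 19938 genes were higher in TKO (0.818%) and 86 lower (0.431%), 249 in all (1.25%). The count of probe sets was 145 without replicate 1 of TKO, 38 without replicate 2 of TKO, 530 without replicate 1 of Dnmt1-/- and 62 without replicate 2 of Dnmt1-/-. With the spread taken from the 4 compared arrays alone, limma called 0 probe sets, and 3781 had an unadjusted p under 0.05, among them all 301. The 301 were chosen on these same arrays, so this is no separate support for them. Of the genes named below, Utf1, Abcc4, Syt11 and Plcd1 (higher in TKO) and Capn6, Asb4, Foxf1, Cfc1, Cer1, Cxcr4, Phlda2, Pdgfra, Bmper, Aplnr, Hand1 and Fbln2 (lower in TKO) kept the call without each of the 4 arrays.

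Since the lines differ in the enzymes that methylate CpG sites, the promoters of the genes with the largest differences are shown, with every CpG in capitals. They are the 250 bases before the annotated start, from RefSeq on GRCm38.p6, 5′ to 3′ on the strand of the gene. Nr0b1 had the largest rise, and Capn6, Asb4 and Cfc1 were among the 4 largest falls. Foxf1, the remaining one, has no entry in the table used.
Nr0b1 (chrX:86191525-86191774, plus strand): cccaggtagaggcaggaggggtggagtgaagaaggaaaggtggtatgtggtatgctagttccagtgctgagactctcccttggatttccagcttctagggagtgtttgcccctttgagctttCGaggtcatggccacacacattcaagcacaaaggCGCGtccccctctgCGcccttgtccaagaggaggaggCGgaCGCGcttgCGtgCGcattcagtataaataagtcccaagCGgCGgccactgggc
Capn6 (chrX:143827413-143827662, minus strand): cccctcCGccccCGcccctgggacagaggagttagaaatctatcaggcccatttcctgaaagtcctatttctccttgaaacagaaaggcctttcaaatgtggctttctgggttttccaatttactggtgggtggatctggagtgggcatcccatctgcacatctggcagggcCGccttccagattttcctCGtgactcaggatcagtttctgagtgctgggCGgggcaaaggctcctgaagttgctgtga
Asb4 (chr6:5383136-5383385, plus strand): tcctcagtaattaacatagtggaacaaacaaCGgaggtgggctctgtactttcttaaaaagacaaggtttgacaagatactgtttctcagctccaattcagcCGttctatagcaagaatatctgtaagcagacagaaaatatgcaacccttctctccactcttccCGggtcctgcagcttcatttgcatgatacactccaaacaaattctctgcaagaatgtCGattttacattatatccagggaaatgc
Cfc1 (chr1:34535398-34535647, plus strand): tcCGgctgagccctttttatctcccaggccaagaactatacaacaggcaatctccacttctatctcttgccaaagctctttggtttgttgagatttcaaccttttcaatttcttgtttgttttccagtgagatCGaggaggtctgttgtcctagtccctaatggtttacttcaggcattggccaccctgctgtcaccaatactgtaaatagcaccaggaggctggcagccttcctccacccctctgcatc
The Nr0b1 sequence holds 11 CpG sites, most of them within the part nearest the start, while those of Capn6, Asb4 and Cfc1 hold 5, 4 and 2. Such a count describes the sequence and says nothing on its methylation in these cells.

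Of the 24 gene lists examined, that of pluripotency had the highest median difference. Of its 37 measured genes, naive and core factors, 12 were higher in TKO EBs and 1 was lower, with a median log2 fold change of 1.20, beside 0.818% of all genes called higher and a median of 0.0011 over all genes. The signal of Nr0b1 (Dax1), a nuclear receptor that binds Oct4, was 9.33 and 10.50 in TKO, 7.36 and 5.94 in Dnmt1-/- and 4.66 and 5.13 in wt EBs. Both TKO arrays lay above both Dnmt1-/- arrays, which in turn lay above wt, and the difference was 3.27 ± 0.44 (limma adjusted p = 0.0064). Utf1, a chromatin-bound factor of undifferentiated cells, gave 10.75 and 10.97 in TKO against 8.92 and 7.61 in Dnmt1-/- and 7.34 and 7.04 in wt EBs, a difference of 2.60 ± 0.31 (limma adjusted p = 0.0028). The ESC means of Utf1 at day 0 were 11.38 in TKO and 11.54 in Dnmt1-/-, so its signal stayed nearer the ESC level in TKO than in Dnmt1-/- EBs.

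Zfp42 (Rex1), a zinc finger marker of naive cells, gave 8.39 and 9.45 in TKO, 7.21 and 6.16 in Dnmt1-/- and 5.53 and 5.16 in wt EBs, a difference of 2.24 ± 0.38 (limma adjusted p = 0.015). Esrrb, an orphan receptor of the naive network, gave 7.76 and 8.92 in TKO, 6.71 and 5.52 in Dnmt1-/- and 5.23 and 5.34 in wt EBs (2.23 ± 0.38, limma adjusted p = 0.015). For both genes the 2 Dnmt1-/- arrays lay above wt and below TKO, replicate 2 nearer to wt than replicate 1. Sox2, the partner of Oct4, gave 9.85 and 10.27 in TKO against 9.02 and 7.66 in Dnmt1-/- EBs (1.72 ± 0.33, limma adjusted p = 0.025). Gdf3, a ligand of the TGF-beta family made by ESCs, was higher by 1.80, and the 6 called members left, Dppa4, Dppa2, Phc1, Nr5a2, Klf2 and Mybl2, by 1.57, 1.56, 1.37, 1.21, 1.20 and 1.04. These 6 are named after their values were seen.

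Pou5f1 (Oct4) and Nanog, which hold the core of the network, were not called. Pou5f1 gave 11.42 and 11.31 in TKO, 10.58 and 8.89 in Dnmt1-/- and 8.52 and 9.13 in wt EBs, and Nanog gave 10.74 and 10.63, 10.04 and 8.07, and 7.75 and 8.36 in the same order. In both genes the TKO arrays lay close together and above both Dnmt1-/- arrays, and the differences were 1.63 ± 0.41 (limma adjusted p = 0.084) and 1.63 ± 0.47 (limma adjusted p = 0.14). Dppa5a, an RNA-binding protein of ESCs, had 11.74 and 12.51 in TKO against 11.17 and 9.66 in Dnmt1-/- EBs (1.71 ± 0.42, limma adjusted p = 0.079). Of the whole list, 33 of 37 genes had a positive difference, beside 50.2% of all genes. With a higher signal in TKO, 28 had an unadjusted p under 0.05 in limma, beside 1499 of all 19938 genes. In 27 of the 37 the mean signals rose from wt over Dnmt1-/- to TKO, as they did in 19.3% of all genes. The mean signal of the list was 8.56 and 9.02 in the TKO arrays and 8.04 and 7.31 in the Dnmt1-/- arrays, beside 7.13 and 7.14 in wt EBs and 9.54 to 9.87 in the 6 ESC arrays. The count of 12 was 11 without replicate 1 of TKO, 1 without replicate 2 of TKO, 20 without replicate 1 of Dnmt1-/- and 2 without replicate 2 of Dnmt1-/-, and the median lay between 0.87 and 1.49.

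The called exception was Tbx3, a T-box factor that belongs to the naive network and also to early mesoderm and endoderm. Its signal was 6.60 and 7.17 in TKO against 8.57 and 8.75 in Dnmt1-/- and 8.84 and 9.31 in wt EBs, so that it was lower in TKO by 1.78 on the log2 scale (-1.78 ± 0.31, limma adjusted p = 0.018). In wt cells Tbx3 rose from day 0 to day 4, by 1.89, while the other 12 called members of the list were called fallen there.

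**Figure D1:**
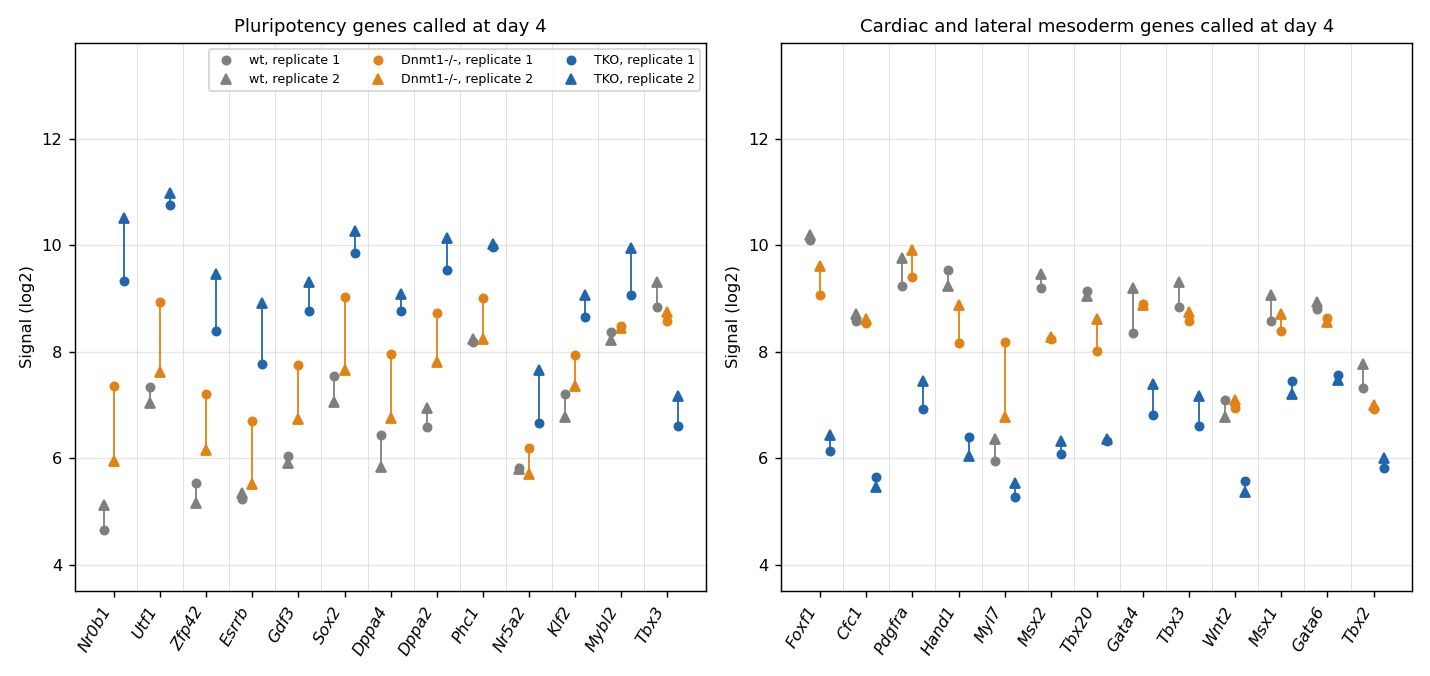
Signals (log2) of the called genes of the pluripotency list (left) and of the cardiac and lateral mesoderm list (right) at day 4, with a circle for replicate 1, a triangle for replicate 2 and a line joining them, in wt (grey), Dnmt1-/- (orange) and TKO (blue) EBs. Among the pluripotency genes the TKO arrays lie above the Dnmt1-/- arrays in 12 genes and below them in Tbx3, and among the 13 mesoderm genes they lie below both other lines.

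Genes of the formative and primed epiblast, the state that follows naive pluripotency, had a median log2 fold change of 0.71 over 20 measured genes. Of these 3 were higher in TKO and 1, Dnmt3a, was lower, beside 0.818% and 0.431% of all genes. The higher genes were Sall2, a zinc finger factor (1.45 ± 0.19, limma adjusted p = 0.0061), Grhl2, a factor of epithelial cells (1.28 ± 0.26, limma adjusted p = 0.035), and Tcf15, a helix-loop-helix factor of primed cells (1.08 ± 0.21, limma adjusted p = 0.03). Fgf5, the usual marker of the primed epiblast, gave 9.96 and 9.63 in TKO, 8.60 and 7.13 in Dnmt1-/- and 6.71 and 8.02 in wt EBs. The TKO arrays were the highest, but the difference of 1.93 ± 0.45 was not called (limma adjusted p = 0.06), and neither was that of Otx2, a homeobox factor of this state (1.39 ± 0.39, limma adjusted p = 0.12). Without replicate 1 of Dnmt1-/- 7 genes of the list were called higher and none was called lower, and without any other of the 4 arrays 0 or 1 were called higher and 0 lower.

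In the primitive streak and mesendoderm list the Dnmt1-/- arrays were farther apart than the lines. Of 27 measured genes 2 were called, both lower in TKO, beside 0.431% of all genes. The median was -0.46, which went from -0.05 without replicate 1 of Dnmt1-/- to -0.86 without its replicate 2. Eomes, a T-box factor of the streak, gave 9.49 and 9.18 in TKO and 10.11 and 8.31 in Dnmt1-/- EBs, so that the TKO arrays lay between the Dnmt1-/- arrays. Brachyury has no probe set with a single symbol here. The called genes were Pdgfra, described below, and Cer1, a secreted antagonist of Nodal, Bmp and Wnt. Cer1 gave 5.52 and 5.58 in TKO, 8.66 and 7.89 in Dnmt1-/- and 6.79 and 7.59 in wt EBs, a difference of -2.72 ± 0.29 (limma adjusted p = 0.0017), with the lowest signals in TKO and the highest in Dnmt1-/-. Without replicate 1 of Dnmt1-/- 2 genes of the list were higher and 3 lower, and without any other of the 4 arrays none was higher and 2 to 4 were lower.

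The list of cardiac and lateral mesoderm had the lowest median difference. Of its 26 measured genes 13 were lower in TKO EBs and none was higher, all 26 had a difference below 0, and the median was -1.06, beside 0.431% of all genes called lower. Foxf1, a forkhead factor of lateral plate mesoderm, gave 6.13 and 6.42 in TKO, 9.07 and 9.61 in Dnmt1-/- and 10.09 and 10.18 in wt EBs. The TKO signals lay near the level of the ESCs, whose 6 arrays at day 0 had 6.30 to 6.64, and the difference of -3.06 ± 0.19 had the smallest adjusted p of all genes (limma, 3.9e-05). A further probe set of Foxf1 gave the largest difference of all probe sets, 3.81 in size and lower in TKO.

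Cfc1 (Cryptic), the co-receptor of Nodal in early mesoderm, gave 5.64 and 5.46 in TKO against 8.53 and 8.61 in Dnmt1-/- and 8.57 and 8.70 in wt EBs, a difference of -3.02 ± 0.23 (limma adjusted p = 0.00021). The means of Dnmt1-/- and wt EBs were 8.57 and 8.64, while both TKO arrays lay below all 4 of these arrays. Pdgfra, a receptor of paraxial and lateral mesoderm, gave 6.92 and 7.45 in TKO against 9.40 and 9.91 in Dnmt1-/- EBs (-2.47 ± 0.29, limma adjusted p = 0.0028). Hand1, a helix-loop-helix factor of heart and extraembryonic mesoderm, gave 6.39 and 6.04 in TKO against 8.15 and 8.87 in Dnmt1-/- EBs (-2.29 ± 0.26, limma adjusted p = 0.0023). In neither gene did the lines overlap, as in every call. Gata4, a zinc finger factor of heart and endoderm, was lower by 1.79, with 6.80 and 7.39 in TKO and 8.90 and 8.88 in Dnmt1-/- EBs (-1.79 ± 0.26, limma adjusted p = 0.0077), and Msx2, a homeobox target of Bmp signals, was lower by 2.05 (-2.05 ± 0.29, limma adjusted p = 0.0071).

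Myl7, the atrial myosin light chain, was the called gene of the list in which the Dnmt1-/- arrays were farthest apart: 5.26 and 5.53 in TKO, 8.19 and 6.77 in Dnmt1-/- and 5.94 and 6.36 in wt EBs (-2.08 ± 0.41, limma adjusted p = 0.031). Its highest signals were in Dnmt1-/- and not in wt EBs. Tbx20, Wnt2, Msx1, Gata6 and Tbx2, named after their values were seen, had differences of -1.96, -1.55, -1.22, -1.08 and -1.05. The list held uncalled genes too, among them Bmp4 (-1.16 ± 0.38, limma adjusted p = 0.22), with 7.50 and 7.64 in TKO and 8.61 and 8.85 in Dnmt1-/- EBs, and the cardiac actin gene Actc1 at -0.03 ± 0.44. The mean signal of the list was 6.31 and 6.38 in the TKO arrays, 7.46 and 7.60 in the Dnmt1-/- arrays and 7.69 and 7.78 in wt EBs, beside 5.99 to 6.17 in the 6 ESC arrays. The 13 calls were 6 without replicate 1 of TKO, 5 without replicate 2 of TKO, 11 without replicate 1 of Dnmt1-/- and 5 without replicate 2 of Dnmt1-/-, while the median stayed between -1.05 and -1.18.

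**Figure D2:**
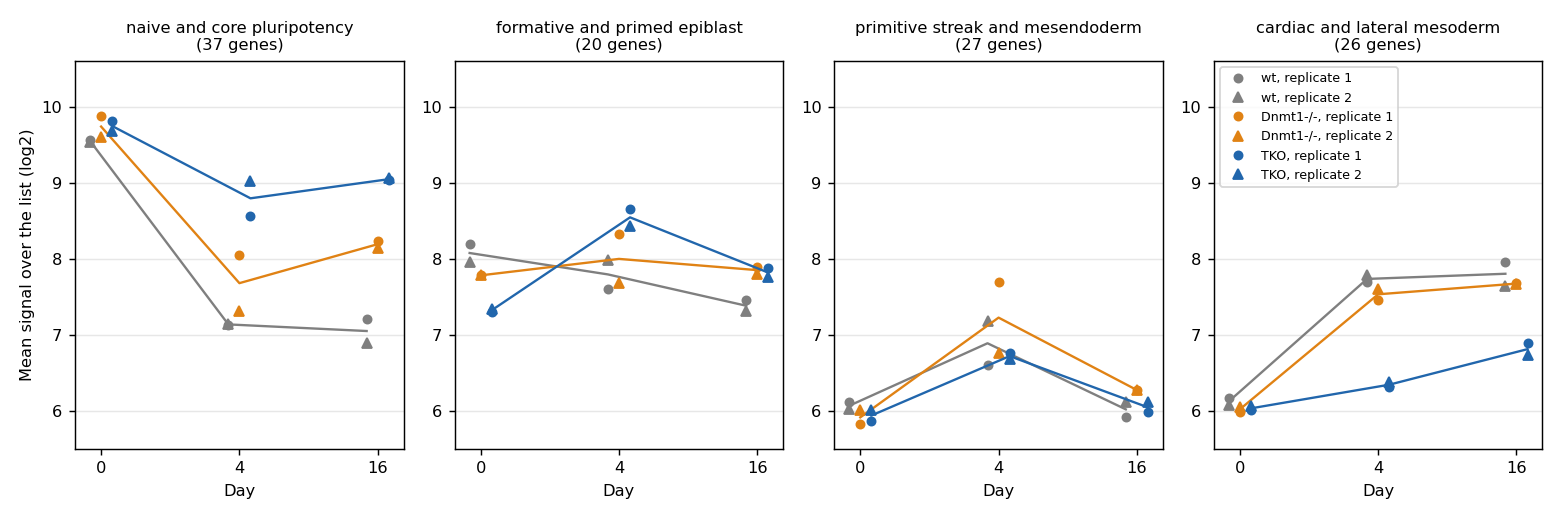
Mean signal (log2) over the genes of 4 lists in each of the 18 arrays by day (days evenly spaced, not to scale), with a circle for replicate 1, a triangle for replicate 2 and lines through the means of wt (grey), Dnmt1-/- (orange) and TKO (blue). At day 4 the TKO arrays are above both other lines for pluripotency (8.56 and 9.02) and below them for mesoderm (6.31 and 6.38), and the Dnmt1-/- arrays lie apart for pluripotency (8.04 and 7.31) and the primitive streak (7.69 and 6.75).

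Outside these lists, Capn6, a calpain-like protein without protease activity that is bound to microtubules, had the largest fall of the genes named: 4.90 and 5.46 in TKO, 7.73 and 9.10 in Dnmt1-/- and 9.17 and 9.01 in wt EBs (-3.23 ± 0.42, limma adjusted p = 0.0052). Nrp1, a co-receptor of semaphorins and Vegf, gave 6.02 and 6.73 in TKO against 8.23 and 9.64 in Dnmt1-/- and 10.31 and 9.98 in wt EBs (-2.56 ± 0.45, limma adjusted p = 0.017). Pmp22, a myelin and junction protein, was lower by 2.95, and Prdm6, a repressor of smooth muscle genes, by 2.47. Aplnr, the apelin receptor of early mesoderm, gave 7.09 and 6.93 in TKO against 9.46 and 9.23 in Dnmt1-/- and 9.01 and 9.46 in wt EBs (-2.33 ± 0.25, limma adjusted p = 0.0019). Phlda2, an imprinted gene that restrains placental growth, gave 7.76 and 8.33 against 10.64 and 10.52 (-2.54 ± 0.32, limma adjusted p = 0.0039). In each of these genes the highest TKO array lay below the lowest Dnmt1-/- array, which the rule for naming them required and which held for every call.

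The largest rises outside the lists included several genes of varied function. Slc7a3, a carrier of cationic amino acids, gave 10.55 and 10.51 in TKO, 8.59 and 7.53 in Dnmt1-/- and 7.38 and 7.65 in wt EBs (2.47 ± 0.35, limma adjusted p = 0.0074). Slc27a2, a fatty acid carrier and acyl-CoA synthetase, was higher by 2.41, Enpp3, an ectonucleotidase, by 2.39, and Pipox, an oxidase of pipecolic acid, by 2.00. Abcc4, an efflux pump of organic anions, gave 9.07 and 9.33 in TKO, 7.23 and 6.89 in Dnmt1-/- and 6.22 and 6.74 in wt EBs, with a narrow spread (2.14 ± 0.22, limma adjusted p = 0.0011). Mmp25, a membrane-bound matrix protease, gave 8.62 and 8.52 in TKO and 7.04 and 6.27 in Dnmt1-/- EBs (1.91 ± 0.27, limma adjusted p = 0.0074). Chchd10, a mitochondrial protein, and Glrx, a glutaredoxin, were both higher by 1.82.

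Members of Nodal, Bmp and TGF-beta signalling moved both ways, 3 higher and 4 lower in TKO of 32 measured, beside 0.818% and 0.431% of all genes. Higher were Lefty1, a secreted inhibitor and target of Nodal, with 7.96 and 8.71 in TKO, 6.53 and 5.26 in Dnmt1-/- and 4.97 and 5.31 in wt EBs (2.44 ± 0.35, limma adjusted p = 0.008), Gdf3, and Pcsk6, a convertase that cleaves Nodal (1.09, named after its value was seen). Lower were Cfc1, Cer1, Bmp2, with 4.77 and 5.0 in TKO against 7.20 and 7.08 in Dnmt1-/- EBs (-2.25 ± 0.41, limma adjusted p = 0.022), and Smad6, an inhibitor and target of Bmp signals (-1.51 ± 0.24, limma adjusted p = 0.011). Nodal itself gave 9.38 and 9.0 in TKO, 8.46 and 7.09 in Dnmt1-/- and 6.46 and 6.91 in wt EBs, and the difference of 1.41 ± 0.34 was not called (limma adjusted p = 0.068). Bmp5, which is not on the list, was lower by 2.77, with 5.61 and 5.42 in TKO against 7.65 and 8.92 in Dnmt1-/- EBs, and Bmper, a binding protein of Bmp ligands named after its values were seen, was lower by 2.15. Smad4, shared by both branches, was level at 0.03 ± 0.12. Without replicate 1 of Dnmt1-/- 8 members were higher and 5 lower, and without any other of the 4 arrays 0 to 3 were higher and 2 or 3 lower.

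Beside 0.431% of all genes lower and 0.818% higher, 5 of 40 genes of Wnt signalling were lower and none was higher. They were the ligand Wnt5a (-2.16 ± 0.41, limma adjusted p = 0.025), the R-spondin Rspo3, which strengthens Wnt signals (-1.76 ± 0.24, limma adjusted p = 0.0063), and 3 inhibitors that Wnt signals also induce: Apcdd1 (-1.71), Nkd1 (-1.54) and Dkk1 (-1.41). Rspo3 gave 6.79 and 6.54 in TKO against 8.44 and 8.41 in Dnmt1-/- EBs. The median of the list was 0.01 and Ctnnb1, beta-catenin, lay at 0.08 ± 0.15, so the list was not shifted as a whole. The 5 calls were 0 without replicate 2 of TKO, 2 without replicate 1 of TKO or replicate 2 of Dnmt1-/- and 4 without replicate 1 of Dnmt1-/-.

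In FGF signalling 2 ligands were lower and 2 feedback genes higher of 25 measured, beside 0.431% and 0.818% of all genes. Fgf3 gave 5.63 and 5.60 in TKO against 7.25 and 7.56 in Dnmt1-/- EBs and was lower by 1.79, and Fgf10, with 6.42 and 6.47 against 8.15 and 7.51, was lower by 1.39. Spry2 and Il17rd (Sef), which are induced by FGF and restrain its signal, were higher by 1.22 and 1.14. The signal of Spry2 was 10.05 and 9.90 in TKO against 9.18 and 8.32 in Dnmt1-/- EBs, and that of Dusp6, a phosphatase of Erk that was not called, was 10.55 and 10.14 against 9.67 and 7.81 (1.61 ± 0.50, limma adjusted p = 0.18). Without replicate 1 of Dnmt1-/- 7 genes were higher and 2 lower, and without any other of the 4 arrays none was higher and at most 1 lower.

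Of 29 genes of epithelial and mesenchymal adhesion 3 were higher, the GTPase Rab25, the splicing factor Esrp1 and the tight junction gene Cldn3, all of epithelial cells (1.32, 1.17 and 1.02), and 2 were lower, the mesenchymal cadherin Cdh11 (-1.66 ± 0.27, limma adjusted p = 0.012) and the repressor Zeb2 (-1.16 ± 0.19, limma adjusted p = 0.012). Cdh11 gave 7.52 and 7.82 in TKO, 9.26 and 9.41 in Dnmt1-/- and 10.16 and 10.62 in wt EBs, so Dnmt1-/- lay between TKO and wt. Vim, the mesenchymal filament, had -0.56 ± 0.30 and was not called. The epithelial keratins Krt8, Krt19 and Krt18 went the other way from the 3 higher genes, at -1.32, -1.16 and -0.81 without a call. Krt19 is named after its values were seen. Of the 29 genes 15 had a difference above 0 and 14 below, with a median of 0.09. Over all genes 0.818% were called higher and 0.431% lower. Each of the 5 calls was lost without each of 3 of the 4 arrays or more, and without replicate 1 of Dnmt1-/- 5 genes were higher and 3 lower.

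Of 42 genes of definitive and visceral endoderm 6 were lower and 1 higher, beside 0.431% and 0.818% of all genes, with a median of -0.14. Of the 6 lower genes, Cer1, Pdgfra, Gata4 and Gata6 are also on the mesoderm or streak list and Dkk1 on the Wnt list, while Cxcr4 is on the endoderm list alone. Cxcr4, a chemokine receptor of both layers, gave 7.20 and 7.80 in TKO, 10.17 and 9.98 in Dnmt1-/- and 10.13 and 10.56 in wt EBs (-2.58 ± 0.22, limma adjusted p = 0.00057). The higher gene was Trh, the thyrotropin-releasing hormone (1.12 ± 0.25, limma adjusted p = 0.047). Abundant extraembryonic endoderm genes were not called, among them Apoe at 0.70 ± 0.22 and Sparc at -0.72 ± 0.28. Without 1 array of the 4, 3 or 4 genes were lower and 0 or 1 higher.

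Blood and endothelial genes gave 1 call each way of 26, beside 0.818% of all genes higher and 0.431% lower. Lower was Runx1, the factor of the onset of blood formation (named after its values were seen), with 5.44 and 5.78 in TKO against 6.85 and 8.47 in Dnmt1-/- EBs (-2.05 ± 0.40, limma adjusted p = 0.029). Higher was Sox18, a factor of endothelium (1.32 ± 0.28, limma adjusted p = 0.04). The endothelial marker Pecam1 overlapped between the lines (6.61 and 7.37 in TKO, 6.85 and 7.83 in Dnmt1-/-). Both calls were lost without either TKO array or replicate 2 of Dnmt1-/-, and without its replicate 1 the list had 1 gene higher and 2 lower. Of 31 neural genes Pax6 alone was called, beside 1.25% of all genes called either way. Pax6, a paired-box factor of eye and forebrain, gave 6.54 and 6.59 in TKO, 4.41 and 4.94 in Dnmt1-/- and 4.93 and 4.71 in wt EBs (1.89 ± 0.27, limma adjusted p = 0.0074), so that wt and Dnmt1-/- overlapped and TKO lay above both, and the call was lost without replicate 2 of TKO. Sox1, the early marker of neural plate, was not called (0.34 ± 0.17, limma adjusted p = 0.58), and neither was Nes (0.49 ± 0.35). Of 25 trophoblast genes 1, Hand1, was lower, beside 0.431% of all genes. The keratins Krt8 and Krt18 had -1.32 ± 0.44 and -0.81 ± 0.46 without a call. Without replicate 1 of Dnmt1-/- 4 trophoblast genes were lower, and without any other of the 4 arrays 1.

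Of 11 DNA methyltransferase, Tet and related genes 1 was higher and Dnmt3a lower, beside 0.818% and 0.431% of all genes. The higher gene was Tet1, which oxidizes methylcytosine: 8.92 and 9.31 in TKO, 8.15 and 7.70 in Dnmt1-/- and 8.37 and 8.01 in wt EBs (1.19 ± 0.23, limma adjusted p = 0.029), a call lost without any of 3 arrays. Dnmt3l, the partner of Dnmt3a and Dnmt3b without activity of its own, gave 8.61 and 9.58 in TKO, 8.28 and 7.12 in Dnmt1-/- and 5.24 and 5.75 in wt EBs. Both mutant lines were above wt, and the difference between them, 1.40 ± 0.38, was not called (limma adjusted p = 0.11). Uhrf1, which guides Dnmt1 to new DNA, was level at 0.10 ± 0.14.

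Many germ line genes are kept silent by promoter methylation in somatic cells. Of 51 measured germ line genes 3 were higher in TKO, beside 0.818% of all genes, and none was lower. The median was 0.37 with 44 genes above 0, beside 50.2% of all genes. Hsf2bp, a meiotic recombination protein, gave 8.11 and 8.75 in TKO, 7.41 and 6.24 in Dnmt1-/- and 5.73 and 5.45 in wt EBs (1.60 ± 0.31, limma adjusted p = 0.029). Nxf2, an X-linked exporter of mRNA, gave 5.59 and 5.63 in TKO, 4.43 and 4.41 in Dnmt1-/- and 3.80 and 4.04 in wt EBs (1.19 ± 0.20, limma adjusted p = 0.014), and Tuba3b, a testis tubulin with a near-identical paralog, was higher by 1.43. In 39 of the 51 genes the mean signals rose from wt over Dnmt1-/- to TKO, as in 19.3% of all genes. The 3 calls were 0 without either TKO array or without replicate 2 of Dnmt1-/-, and 6 without its replicate 1. These counts cover the list alone. A gene of the Pramel family outside it, picked after its values were seen, was called lower in TKO (-1.30 ± 0.25, limma adjusted p = 0.029). It gave 3.71 and 3.19 in TKO, 5.22 and 4.27 in Dnmt1-/- and 3.23 and 3.19 in wt EBs, so TKO lay near wt. Of 12 measured genes of X-linked testis families none was called and none had an unadjusted p under 0.05 (median 0.13), although Rhox6 and Rhox9 lay above wt in both mutants.

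Imprinted genes gave 2 calls higher and 3 lower of 33, beside 0.818% and 0.431% of all genes. Igf2, a paternally expressed growth factor, gave 6.09 and 6.37 in TKO, 7.35 and 8.68 in Dnmt1-/- and 10.81 and 10.64 in wt EBs (-1.79 ± 0.31, limma adjusted p = 0.017), in the order TKO, Dnmt1-/-, wt without overlap. Igf2r, its maternally expressed receptor, gave 8.97 and 9.06 in TKO, 8.03 and 7.93 in Dnmt1-/- and 9.06 and 8.97 in wt EBs (1.03 ± 0.19, limma adjusted p = 0.024). Here TKO was at the wt level and Dnmt1-/- below. Asb4, a subunit of a ubiquitin ligase, gave 7.49 and 8.17 in TKO, 11.30 and 10.51 in Dnmt1-/- and 8.43 and 9.15 in wt EBs (-3.07 ± 0.34, limma adjusted p = 0.002), with Dnmt1-/- above wt and TKO below it. The other calls were Phlda2 and Magel2, a regulator of ubiquitin ligases (1.09 ± 0.21). Without replicate 1 of Dnmt1-/- the list had 2 calls higher and 3 lower, and without any other of the 4 arrays 0 higher and 2 lower. The calls of Igf2 and Magel2 were lost without either TKO array or replicate 2 of Dnmt1-/-, and that of Igf2r without any of the 4 arrays.

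The remaining lists had few calls or none, beside 0.818% of all genes called higher and 0.431% lower. Of 33 Hox genes only Hoxb2 was lower (-1.59 ± 0.32, limma adjusted p = 0.035). Of 29 stromal and feeder fibroblast genes only Fbln2, a fibulin of the matrix, was lower (-1.47 ± 0.14, limma adjusted p = 0.00097), and the mean signal of that list lay between 6.65 and 6.75 in the 4 arrays. Without 1 array of the 4, 1 or 2 stromal genes were lower. Of 26 p53 target and apoptosis genes Gadd45a, a stress-induced gene, was higher (1.19 ± 0.21, limma adjusted p = 0.017) with a list median of 0.29. Of these 26, 22 had a difference above 0, beside 50.2% of all genes, and 8 were higher in TKO with an unadjusted p under 0.05 in limma. In 15 of the 26 the mean signals rose from wt over Dnmt1-/- to TKO, as in 19.3% of all genes. Of 33 cell cycle genes Ccnd2, a D-type cyclin, was lower (-1.11 ± 0.24, limma adjusted p = 0.047) with a median of -0.02. Single-symbol probe sets measured 13 of the 27 genes written for the 2-cell-like state, without Dux and the Zscan4 genes. No gene was called among these 13, 27 of the interferon response and 27 of hypoxia and glycolysis, with medians of -0.41, -0.04 and 0.06. With an unadjusted p under 0.05 in limma, 0, 3 and 2 were higher in TKO and 4, 1 and 1 lower. Of all 19938 genes, 1499 higher and 1046 lower in TKO had such a p. Without 1 array of the 4, the lists of p53 targets, cell cycle, 2-cell-like state, interferon response and hypoxia each had at most 1 call. The Hox list had 2 genes lower without replicate 1 of Dnmt1-/- and none called without any other of the 4 arrays. Of 8 Y-linked genes Usp9y was lower (-1.30 ± 0.23, limma adjusted p = 0.017), with 4.99 and 5.23 in TKO, 6.11 and 6.71 in Dnmt1-/- and 3.48 and 3.57 in wt EBs, while its neighbours on that list Eif2s3y and Uty were level at 0.00 ± 0.18 and 0.03 ± 0.23. The calls of Hoxb2, Gadd45a and Usp9y were lost without either TKO array or replicate 2 of Dnmt1-/-, and that of Ccnd2 without any of the 4 arrays.

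**Figure D3:**
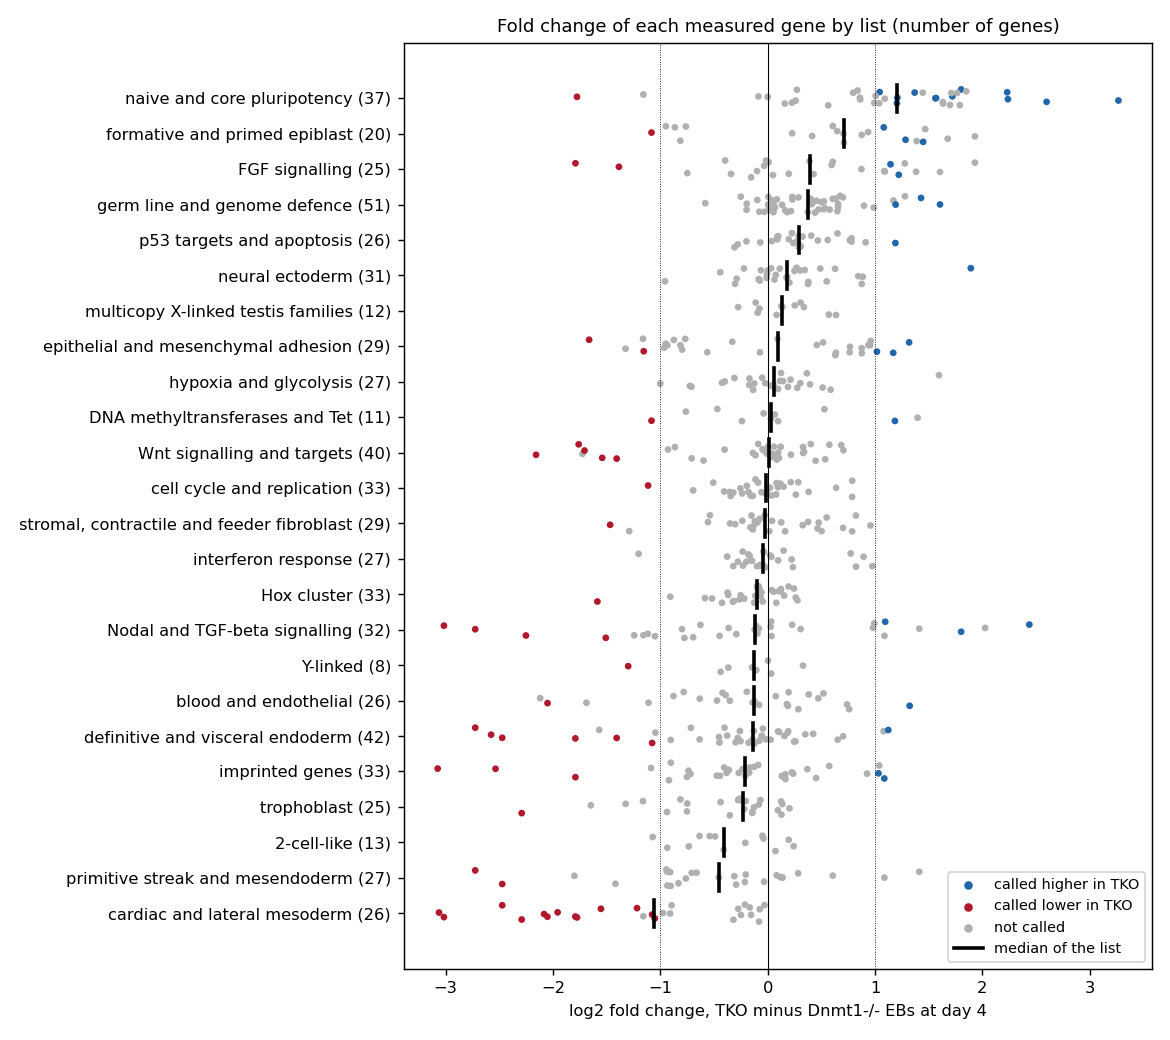
log2 fold change between TKO and Dnmt1-/- EBs at day 4 (horizontal axis) of each measured gene of 24 lists (vertical axis, number of genes in brackets), with genes called higher in blue, called lower in red, not called in grey, the list median as a black bar and dotted lines at the 2-fold limit. The pluripotency list has the highest median (1.20) and the cardiac and lateral mesoderm list the lowest (-1.06).

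The difference was then set beside arrays that share no sample with it. In wt cells from day 0 to day 4, 95 of the 163 genes higher in TKO had fallen (58.3%, beside 2.77% of all genes) and none had risen, with a median change of -1.18. Of the 86 genes lower in TKO, 64 had risen in wt (74.4%, beside 3.02% of all genes) and 1, Dnmt3a, had fallen, with a median change of 2.02. Among the genes with the largest differences, Nr0b1 fell by 5.60 in wt and Capn6 rose by 4.56, while Phlda2 had a wt change of 0.26, Mmp25 of -0.58 and Glrx of -0.89, without a call. Genes without a called change in wt also included Calcr, the calcitonin receptor, which gave 7.72 and 7.28 in TKO, 5.82 and 5.68 in Dnmt1-/- and 5.97 and 6.16 in wt EBs (1.75 ± 0.24, limma adjusted p = 0.0061) and a wt change of 0.02 with an adjusted p of 0.98, and Myl7, with a wt change of 0.16. Calcr is named after its values were seen.

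**Figure D4:**
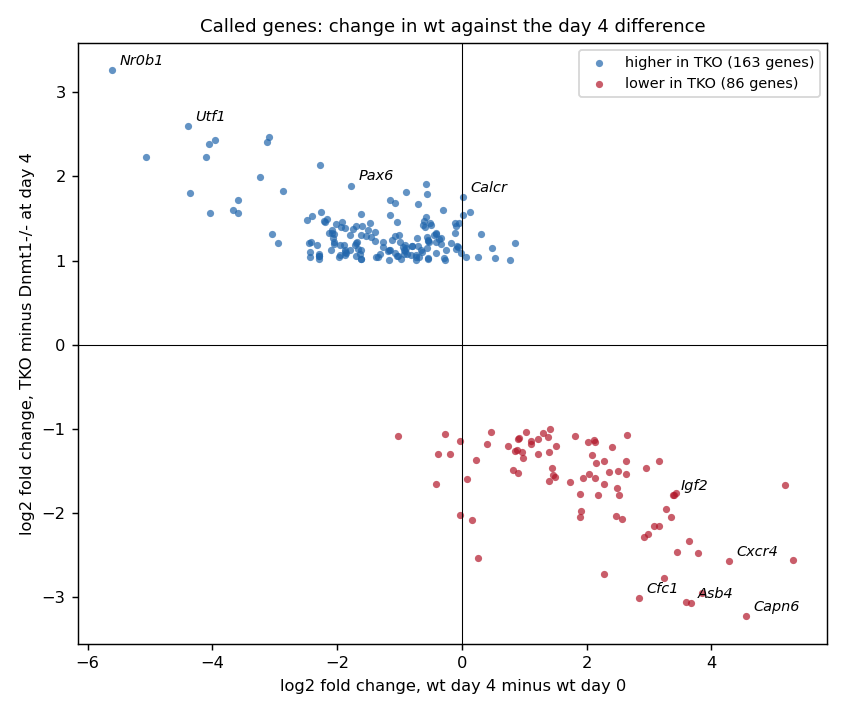
Each of the 249 genes called at day 4 by its log2 fold change in wt from day 0 to day 4 (horizontal axis) and between TKO and Dnmt1-/- EBs at day 4 (vertical axis), blue where higher and red where lower in TKO. Most genes higher in TKO lie left of 0 (153 of 163) and most genes lower in TKO right of 0 (79 of 86).

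The comparisons of each mutant with wt EBs share arrays with the one above and are given as values alone. Nr0b1 was 5.03 above wt in TKO (limma adjusted p = 2.6e-05) and 1.76 above wt in Dnmt1-/- (limma adjusted p = 0.16). Foxf1 was 3.86 below wt in TKO (-3.86, limma adjusted p = 3.5e-07) and 0.80 below wt in Dnmt1-/- (-0.80, limma adjusted p = 0.11). Igf2 was below wt in both, at -4.49 in TKO (limma adjusted p = 9.2e-06) and -2.70 in Dnmt1-/- (limma adjusted p = 0.00049). Asb4 was 2.12 above wt in Dnmt1-/- (limma adjusted p = 0.0074) and at -0.96 in TKO, without a call. Over all probe sets 1036 were called between TKO and wt (2.92%) and 262 between Dnmt1-/- and wt (0.738%), and of the latter 253 were higher in Dnmt1-/- (0.712%) and 9 lower (0.0253%).

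At day 0, as ESCs, 2 of 35512 probe sets were called between TKO and Dnmt1-/- (0.00563%), both lower in TKO. An unadjusted p under 0.05 in limma was found in 1221, a smaller share of the probe sets than 0.05 itself. Dnmt3b was the single called gene with a symbol (0.00502% of genes, -2.00, limma adjusted p = 0.047). None of the 249 genes called at day 4 was called at day 0, and their medians there were -0.02 in both directions. Day 4 chose these genes, so the medians of the days are not compared. The change of the difference from day 0 to day 4 was tested as a contrast of its own, which called 11 probe sets (0.031%), all of them among the 301. They were Foxf1, measured by 2 of the 11, Cfc1, Cxcr4, Bmper and Fbln2, whose differences became more negative, Abcc4, Pgap1, Syt11 and Plcd1, whose differences became more positive, and 1 probe set without a symbol. Pgap1, Syt11 and Plcd1 are named after their values were seen. Cfc1 changed by -3.13 ± 0.32 (limma adjusted p = 0.0069), from signals of 5.63 to 6.04 in the 4 mutant ESC arrays. For Nr0b1 (3.0, limma adjusted p = 0.14) and Capn6 (-3.52, limma adjusted p = 0.087) the change was as large but was not called.

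At day 16, on other arrays, most of these genes differed in the same direction. Of the 163 genes higher in TKO at day 4, 138 had a positive difference at day 16 and 12 were called higher (7.36%, beside 0.166% of all genes), with a median of 0.51. Of the 86 lower genes, 79 had a negative difference and 22 were called lower (25.6%, beside 1.46%), with a median of -0.78. Among the pluripotency genes 6 of 37 were higher in TKO at day 16 and none was lower (median 1.00), and among the mesoderm genes 8 of 26 were lower (median -0.54). Nr0b1 gave 9.25 and 9.60 in TKO and 7.72 and 7.63 in Dnmt1-/- EBs at day 16. Pdgfra gave 8.15 and 7.50 against 10.40 and 10.39, a difference of -2.57 (limma adjusted p = 0.0012) that was as large as at day 4, and Igf2 gave 6.99 and 6.71 against 10.77 and 10.70 (-3.89, limma adjusted p = 7.7e-05).

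The change of the difference from day 4 to day 16 was called in 58 probe sets (0.163%), 56 of them toward lower in TKO (0.158%). They measured 54 named genes (0.271%). Of the 58, 9 were called at day 4, and of the other 49 probe sets 44 were called lower in TKO at day 16, such as Alb, serum albumin (3.95 and 3.91 in TKO and 3.67 and 3.89 in Dnmt1-/- at day 4, and a difference of -4.76 at day 16), and the matrix proteoglycans Dcn and Lum (-4.43 and -3.24 at day 16). These 3 are named after their values were seen. Among those called at day 4, Cfc1 lost most of its difference (-3.02 at day 4 and -0.60 at day 16), with signals at day 16 of 6.43 and 6.0 in TKO and 6.96 and 6.67 in Dnmt1-/- EBs, and Abcc4 went from 2.14 to 0.15, as Dnmt1-/- reached 8.55 and 8.49 beside 8.68 and 8.66 in TKO.

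**Figure D5:**
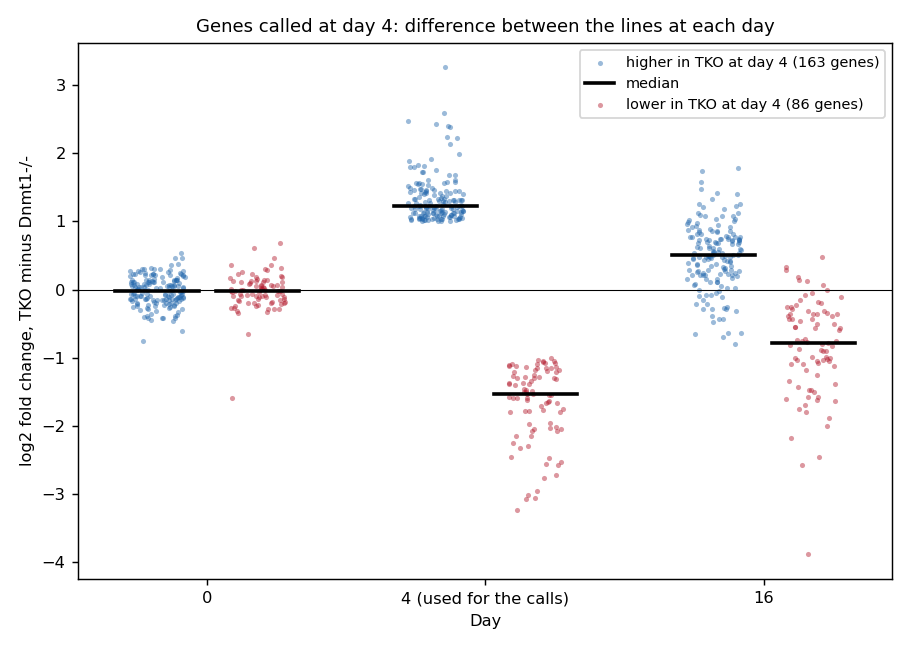
Difference between TKO and Dnmt1-/- (log2 fold change, vertical axis) at day 0, 4 and 16 for the 163 genes called higher (blue) and the 86 called lower (red) at day 4, with the median as a black bar. Day 4 made the calls and is shown for scale, the medians at day 0 are -0.02 in both groups, and those at day 16 are 0.51 and -0.78.

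The called genes were also described by chromosome and promoter. On the X chromosome lay 10 of the 163 genes higher in TKO (6.13%), 5 of the 86 lower genes (5.81%) and 742 of 19919 genes overall (3.73%), among them Nr0b1, Slc7a3 and Nxf2 and, on the lower side, Capn6. In the 250 bases before the start, the median number of CpG sites was 13.5 over 134 of the genes higher in TKO that have an entry, 8.5 over 62 of the lower genes and 11 over 15614 genes overall. The median ratio of observed to expected CpG was 0.636, 0.466 and 0.590 in the same order, and the share of promoters with a ratio of at least 0.6 was 55.2%, 35.5% and 49.0%. The lists stood differently, with a median ratio of 0.587 over 24 pluripotency genes and 0.616 over 18 mesoderm genes. These are descriptions of sequence, without a test, and no methylation was measured on these arrays.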

How the data were processed

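RNA of wt, Dnmt1-/- and TKO ESCs (day 0) and EBs (day 4 and 16), 2 arrays a group, was hybridized to Affymetrix Mouse Gene 1.0 ST arrays. The values the authors deposited are log2 signals made with RMA for each probe set (background correction, normalization between arrays, summary over probes), as the submitters' processing notes name it. The sources used here name neither the version nor the probe annotation nor a filter. RMA pulls the arrays to a common distribution, so a shift of all genes together would not be seen, and low signals are compressed. Of 35512 probe sets, 21789 have 1 symbol in the platform annotation, 1621 several and 12102 none. The single-symbol probe set with the highest mean signal stands for each of 19938 genes.

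Means of the 9 groups were estimated together over the 18 arrays in limma 3.58.1 (R 4.3.3), with the default eBayes (9 residual and 3.32 prior degrees of freedom). Each comparison, and each change of a difference between days, was a contrast, and the step was tested on simulated data. A call is a difference of 1 or more in log2, in either direction, at a Benjamini-Hochberg false discovery rate under 0.05 over all probe sets of the comparison, after the study's thresholds. Errors are SEs of the fit (median 0.203, and 0.287 for a change between days). The number of arrays limits the precision. The p-values of this fit rest on the spread between replicates pooled over all 9 groups, and not on that of the compared arrays alone.

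The comparison and the 24 gene lists (616 genes measured, 42 of them in more than 1 list) were chosen with earlier results of these data known, and some lists hold genes that the study picked on these arrays, so counts over lists are descriptions. Genes to name were the 15 that rose most and the 15 that fell most among called genes in which the arrays of the lines did not overlap. Added to them were up to 6 called and 3 abundant uncalled members of each list, the genes the study names and the Dnmt genes. The text gives a part of them, and says where a gene was named after its values were seen. Promoters came from a RefSeq table on GRCm38.p6.

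The alternatives were subtraction of array medians, a further quantile normalization, centred fold changes, a fit of only the compared arrays or only the 6 EB arrays of day 4, leaving out probe sets in the lowest 30% by signal, a replicate block, a single probe set for each gene, robust eBayes with a trend, a false discovery rate alone, a test against the 2-fold line, a joint false discovery rate over the comparisons, CpG sites per 100 bases in place of the ratio, and omission of each array. The counts of list members without each array were added after the data were seen.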

Additional observations from a re-analysis of the deposited data

Results flagged for a closer look

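The results given here were singled out because the difference between TKO and Dnmt1-/- changed between days by a test of the change itself (limma contrast, at least 2-fold, false discovery rate under 0.05). From day 0 to day 4 it changed by -3.13 for Cfc1, -2.91 for Foxf1, -2.74 for Cxcr4, -2.41 for Bmper and -1.47 for Fbln2, toward lower in TKO. It changed by 2.10 for Abcc4, 1.87 for Pgap1, 1.69 for Syt11 and 1.40 for Plcd1, toward higher in TKO.

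From day 4 to day 16 it changed by 2.42 for Cfc1, the single gene of those named that moved back toward no difference from the lower side. Changes toward lower in TKO were -1.99 for Abcc4, -1.76 for Pgap1, -1.51 for Syt11, -2.07 for Ebf1, a factor of B cells and fat, -2.04 for Gstm1, a glutathione transferase, -1.87 for Mtus1, a microtubule protein, -2.12 for Pls1, a plastin of microvilli, and -1.73 for Igf2r, all of which were higher in TKO at day 4. The changes were -4.90 for Alb, -4.90 for Dcn, -3.15 for Lum and -3.30 for Dlk1, an imprinted inhibitor of Notch, which were not called at day 4. Apart from Cfc1, Foxf1, Cxcr4, Abcc4, Fbln2 and Igf2r, these genes were named after their values were seen. Groups of 2 arrays are too small for a test of single outlying arrays.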

How the results depend on the processing

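Of 301 calls at day 4 (195 higher, 106 lower), limma made 0 with the spread taken from the compared arrays alone and 1 (0 higher, 1 lower) from the 6 EB arrays of day 4. All 301 had an unadjusted p under 0.05 in limma there, but they were chosen on the same compared arrays, so this is no separate support. A test against the 2-fold line gave 6 (0 higher, 6 lower), and a false discovery rate alone gave 484, of them 326 higher. Omission of an array gave 38 to 530 calls, 16 to 358 higher and 21 to 172 lower. Under the other alternatives 269 to 385 were called. No setting turned the sign of a shared call, but this is no support for the calls. In all 301 both arrays of a line lay above both of the other, so omission of an array could not turn a sign. Settings that change only the test leave the difference as it is. Of the 90 called genes chosen by the naming rule or later, 16 kept the call without each of the 4 arrays. The cause of these shifts was not tested. Fits of fewer arrays also have fewer degrees of freedom.

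Of 11 calls for the change from day 0 to day 4, 0 were made from the compared arrays alone, 21 without the probe sets of lowest signal, 67 with 1 probe set per gene, 157 with a joint false discovery rate, 0 against the 2-fold line and 1 to 196 without an array. Of 58 calls for the change from day 4 to day 16, the same settings gave 0 from the compared arrays alone, 173 with 1 probe set per gene, 209 with a joint false discovery rate, 4 against the 2-fold line and 11 to 85 without an array.

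The replicate numbers are shared by all groups. The replicates came from independent experiments per the study, but the sources used here do not say that arrays of equal number share an experiment. Over the 36 pairs of groups the correlation of the replicate differences was above 0 throughout, from 0.041 to 0.501, over 0.1 in 32 and 0.226 between TKO and Dnmt1-/- EBs of day 4, so a pairing by number is possible and was not settled. With the replicate block 385 probe sets were called at day 4 (253 higher, 132 lower), which include all 301, and 30 and 107 for the changes from day 0 and to day 16. Of the genes named, Pou5f1, Nodal and Dppa5a were called with the block and not without it. CpG sites per 100 bases had medians of 5.4 in the promoters of the genes higher in TKO, 3.4 in the lower and 4.4 in all, in the order of the ratios. These are the CpG counts given above on another scale, so they are no separate check of those counts.

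With 2 arrays a group, a difference of 2-fold was called in no probe set by limma from the 4 arrays alone. Low signals carry less information, and neither protein nor methylation was measured.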
